A study of Mus musculus with 2 samples.

Results

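Haemoglobin-dominated barcodes were droplets in which red cell messages outnumbered all others: more than 50% of their unique molecular identifiers (UMIs, tags that count captured RNA molecules) came from Hba-a1, Hba-a2, Hba-x, Hbb-bs, Hbb-bt, Hbb-bh1 and Hbb-y summed, with no minimum number of genes. They were 175 of 2492 barcodes in 2 droplet libraries of E18.5 mouse intestine on the C57BL/6 background, made with a 3' tag chemistry. The Mlkl-null library came from 1 Mlkl -/- embryo and held 52 of them among 1478 barcodes. The Casp8-mutant library came from 1 Casp8 C362A/C362A Mlkl -/- embryo and held 123 among 1014. Both embryos thus lacked Mlkl, the membrane-breaching effector of necroptosis. They differed in Casp8, whose C362A allele swaps the active-site cysteine of the apoptotic protease caspase-8 for alanine. With 1 library for each genotype there was no test between genotypes, and genotype, embryo and library could not be told apart. Intervals are 95% and cover counting error only.

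Red cells fill with haemoglobin, a tetramer of α-type and β-type globin chains around haem. In the mouse the α-type genes lie in a cluster on chromosome 11, where Hba-x encodes the embryonic ζ chain and Hba-a1 and Hba-a2 the adult chain. The β-type genes lie on chromosome 7, where Hbb-y and Hbb-bh1 are the embryonic genes and Hbb-bs and Hbb-bt the adult ones. Primitive red cells from the yolk sac use the embryonic genes, and definitive red cells from the fetal liver use the adult genes. Definitive precursors make haem, expel the nucleus, and then as reticulocytes lose mitochondria and ribosomes while they still carry globin mRNA. Fetal intestine is perfused, so a dissociated gut brings blood cells into the suspension.

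Members are defined by RNA from these clusters, so the proximal promoters of the 4 adult and embryonic genes that carried the results are shown. These are the 120 bases before the RefSeq start of each gene on GRCm38.p6, 5′ to 3′ on the coding strand. Also shown is the mature microRNA of Mir451a, a microRNA gene of the red cell lineage, since the gene was among those most raised in the members. Capitals mark every match on either strand to the motif CACCC, to the motif CCAAT, to the TATA-type motif TATAA or to the GATA-type motif GATAA, and in the microRNA the seed, bases 2 to 8.
Hba-a2 (chr11:32296372-32296491, plus strand): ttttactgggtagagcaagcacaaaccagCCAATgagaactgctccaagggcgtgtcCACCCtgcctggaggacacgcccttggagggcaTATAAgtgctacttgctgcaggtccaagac
Hba-x (chr11:32276480-32276599, plus strand): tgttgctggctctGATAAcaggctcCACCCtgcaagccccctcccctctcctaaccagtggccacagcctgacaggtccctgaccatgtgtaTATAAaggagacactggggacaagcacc
Hbb-bs (chr7:103827929-103828048, minus strand): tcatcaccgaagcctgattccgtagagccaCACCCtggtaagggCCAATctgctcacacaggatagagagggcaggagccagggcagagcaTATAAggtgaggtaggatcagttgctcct
Hbb-bt (chr7:103813924-103814043, minus strand): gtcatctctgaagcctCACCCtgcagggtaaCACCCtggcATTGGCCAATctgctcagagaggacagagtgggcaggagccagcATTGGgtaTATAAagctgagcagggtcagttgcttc
mmu-miR-451a (chr11:78073186-78073207, plus strand): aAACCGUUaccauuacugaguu
A TATAA match stood near the start in all 4 windows, and CACCC was matched in all 4. CCAAT was matched in Hba-a2, Hbb-bs and Hbb-bt but not in Hba-x, whose window was the only one of these 4 with a GATAA match. Hbb-bt held 2 CACCC matches and 3 CCAAT matches, where a match on both strands or in overlap counts each time. Among 32851 RefSeq windows of the same length, 31.7% held CACCC, 21.3% CCAAT, 11.8% TATAA and 10.5% GATAA on either strand, and 0.688% held the first 3 together. The Hba-a1 window shared an unbroken run of 117 bases with that of Hba-a2, against 14 for Hbb-bs and Hbb-bt. These are matches of letters, and binding was not measured.

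The remaining barcodes had medians of 3731 UMIs and 1818 genes in the Mlkl-null library and 1924 UMIs and 1048 genes in the Casp8-mutant library. The shallowest deposited barcodes held 1247 and 974 UMIs. Globin RNA was found in nearly every droplet: Hbb-bs had a UMI in 99.8% and 100% of the remaining barcodes, with medians of 0.276% and 1.05% of UMIs from the 7 genes. The libraries shared 2 barcode sequences, none of them among the members.

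Members made up 3.52% of the Mlkl-null barcodes (Clopper-Pearson interval 2.64 to 4.59) and 12.1% of the Casp8-mutant barcodes (10.2 to 14.3), a ratio of 3.45 (2.47 to 4.86). Among barcodes of at least 1247 UMIs, the lowest total of the deeper library, the shares were 3.52% and 11.0%. Since 38 of the 52 and 121 of the 123 had fewer than 500 genes, a minimum of 500 genes turned the direction, leaving 14 members (0.973%) and 2 (0.229%). Members over 80% haemoglobin numbered 29 and 43, or 1.96% and 4.24% of barcodes. Members carried 2.30% and 6.52% of all UMIs but 81.6% and 77.2% of the haemoglobin UMIs. The rule chose them by these UMIs, so this excess describes the selection. More red cells and fewer captured intestinal cells cannot be told apart in a share.

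The haemoglobin share chose the members and is given as a description. It ran from 59.8% through a median of 84.0% to 91.9% in the Mlkl-null members and from 50.5% through 75.6% to 86.9% in the Casp8-mutant members. Just inside the threshold lay barcodes at 59.8%, 62.1% and 62.6% in the first library and 50.5%, 50.6% and 52.0% in the second. Just outside lay 48.6%, 46.6% and 45.4%, and 47.5%, 46.9% and 46.0%. The space between red cells and other droplets was nearly empty in the Mlkl-null library, with 7 barcodes between 5% and 50%, and more filled in the Casp8-mutant library, with 31. Members were shallow: total UMIs ran from 1398 through a median of 2733.5 to 5006 and from 1110 through 1364 to 2797. Outside the globin genes they held medians of 453.5 and 305 UMIs. Detected genes ran from 124 through 365 to 846 and from 117 through 231 to 523. Members with a higher haemoglobin share had fewer genes (Pearson r = -0.767 over 52 barcodes and -0.857 over 123), a description of barcodes that share a library and whose gene number depends on their non-globin UMIs.

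**Figure D1:**
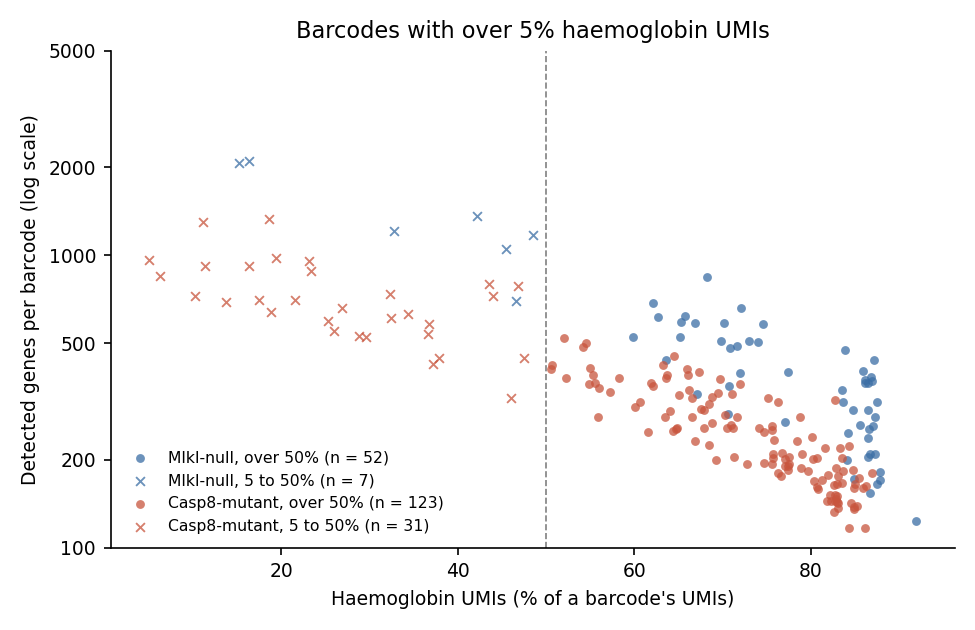
Haemoglobin share of UMIs (x axis, percent) against detected genes (y axis, log scale) for each barcode above 5% haemoglobin, coloured by library, with members as dots, barcodes from 5% to 50% as crosses and the threshold as a dashed line. Only 7 Mlkl-null barcodes lie between 5% and 50% against 31 in the Casp8-mutant library, and 14 and 2 members reach 500 genes.

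The adult α genes were found in every member. Hba-a1 (ENSMUSG00000069919, chromosome 11, 32283511 to 32284465, plus strand, mm10) had 155 UMIs in the lowest Mlkl-null member, a median of 325.5 and 608 in the highest, and 138, 225 and 440 in the Casp8-mutant members. Hba-a2 (ENSMUSG00000069917, 32296489 to 32297298), 12024 bases further on, had 118, 234.5 and 535 UMIs, and 78, 171 and 358. Of the adult α UMIs 56.2% and 56.9% were assigned to Hba-a1. That split is uncertain, since 58.9% of the 90-base windows of the Hba-a1 transcript occur unchanged in Hba-a2 and 77.2% of those of Hba-a2 in Hba-a1.

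Hba-x (ENSMUSG00000055609, 32276400 to 32278116), the embryonic ζ gene at the other end of the cluster, had UMIs in every member too. The lowest, median and highest Mlkl-null member had 68, 147.5 and 337, and the Casp8-mutant members 55, 105 and 231. The Hba-x transcript shares no 90-base window with the adult α genes, but neither does that of the pseudogene Hba-ps4, described below. How reads were assigned to Hba-x was not tested. Per 100 adult α UMIs there were 26.4 Hba-x UMIs (25.8 to 27.0) and 26.9 (26.5 to 27.3). Single barcodes ran from 21.4 through a median of 26.1 to 31.8, and from 20.5 through 26.4 to 34.8. Each member of both libraries thus held Hba-x UMIs in a narrow proportion to adult α UMIs, and the ranges of the libraries overlapped almost fully. In barcodes of at most 5% haemoglobin, Hba-x reached only 7.85 and 8.49 per 100 adult α UMIs.

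Adult β message made up 65.2% of the haemoglobin UMIs in the Mlkl-null members and 50.9% in the Casp8-mutant members. Hbb-bs (ENSMUSG00000052305, chromosome 7, 103826534 to 103828096, minus strand) had 358, 1171.5 and 2661 UMIs in the lowest, median and highest Mlkl-null member and 211, 414 and 1014 in the Casp8-mutant members. Hbb-bt (ENSMUSG00000073940, 103812524 to 103813996) had 66, 231.5 and 607, and 38, 118 and 274. The Hbb-bs median differed more between the libraries than the Hba-a1 median did. Embryonic β message was scarce: Hbb-bh1 (ENSMUSG00000052217) gave 68 UMIs in 34 of the 52 barcodes and 114 in 68 of the 123, and Hbb-y (ENSMUSG00000052187) 65 in 29 and 69 in 54. Together they were 0.117% and 0.136% of the haemoglobin UMIs. The highest share in a barcode was 1.35%, in a Mlkl-null member with 17 Hbb-y UMIs, and 0.766% in the Casp8-mutant library. No member was dominated by embryonic β genes, while Hba-x UMIs were present in all.

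The balance of chains differed between the libraries. Of the haemoglobin UMIs, 34.7% (34.4 to 34.9) were α-type in the Mlkl-null members and 48.9% (48.6 to 49.2) in the Casp8-mutant members. Single barcodes ran from 21.6% through a median of 34.6% to 67.2% and from 37.2% through 48.7% to 72.1%. The sets overlapped, but 40 of the 52 Mlkl-null members lay below every Casp8-mutant member and no Casp8-mutant member lay below the Mlkl-null median. Hbb-bt made up 17.0% (16.7 to 17.3) and 22.4% (22.1 to 22.7) of adult β UMIs, with barcodes from 9.05% through 14.8% to 31.0% and from 12% through 23% to 34.5%. That split rests on genes that share 63.3% of the Hbb-bs windows and 55.5% of the Hbb-bt windows. These are shares of 3' tags, not of protein.

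Globin RNA of barcodes with little haemoglobin held less α-type message than the members did. In barcodes of at most 5% haemoglobin 5.0% and 7.47% of the haemoglobin UMIs were α-type, and the 7 and 31 barcodes between 5% and 50% had 33.4% and 45.3%. The α-type difference stayed among members over 80% haemoglobin and when every barcode was thinned to 900 UMIs. Hba-ps4 (ENSMUSG00000084893, chromosome 17), an annotated α-globin pseudogene, gave 6.40 and 11.0 UMIs per 100 adult α UMIs, and 111 of the 123 Casp8-mutant members lay above every Mlkl-null member. Hbb-bh3 (ENSMUSG00000083216), an annotated β-globin pseudogene, gave 0.642 and 1.67 UMIs per 100 adult β UMIs, and 100 of the 123 lay above every Mlkl-null member. Neither pseudogene transcript shares a 90-base window with the globin mRNAs. What reads were assigned to these pseudogenes, and the part that read assignment has in the chain difference, was not tested.

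**Figure D2:**
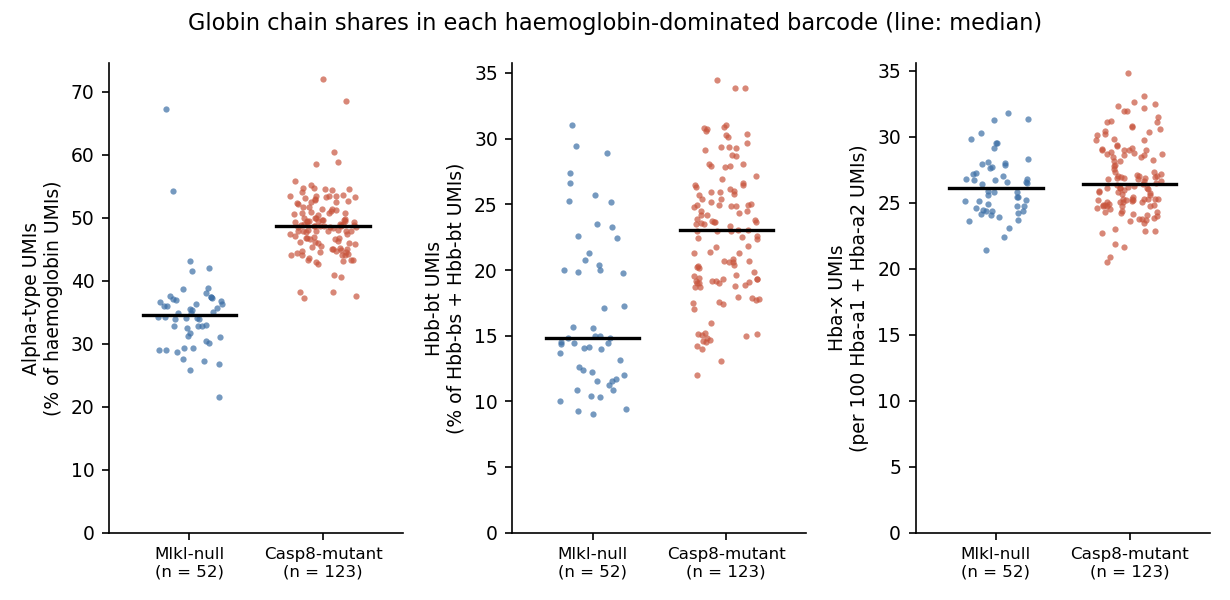
Globin chain measures of each member barcode (points) in the 2 libraries, with the median as a line: α-type percent of haemoglobin UMIs, Hbb-bt percent of adult β UMIs, and Hba-x UMIs per 100 adult α UMIs. The α-type median is 34.6% in the Mlkl-null and 48.7% in the Casp8-mutant members, while the Hba-x medians are 26.1 and 26.4.

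The red cell programme outside the globin genes was measured as UMIs per 10000 UMIs outside all globin genes, so that the globin share did not set the level. A gene was counted higher or lower where its ratio was at least 1.5-fold and the exact conditional interval left out 1, among genes with at least 20 UMIs observed in the members or expected from the remaining barcodes. In the Mlkl-null library 90 of 262 genes (34.4%) were higher in the members than in the remaining barcodes and 86 (32.8%) were lower. In the Casp8-mutant library 156 of 483 (32.3%) were higher and 206 (42.7%) lower. The median log2 ratio over all measured genes was -0.19 and -0.24. Members were chosen by their RNA, so these contrasts describe them and test nothing. Of 230 genes measured in each library, 75 were higher in both and 64 lower in both.

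Haem synthesis genes were higher. All 5 measured members of the 12-gene list were higher in each library, with median log2 ratios of 4.78 and 4.60. Alas2 on chromosome X, which encodes the rate-limiting first enzyme of haem synthesis in red cells, reached 54.1 and 49.1 UMIs per 10000 in the members against 0.132 and 0.515 in the remaining barcodes, ratios of 409 (310.4 to 542) and 95.3 (76.2 to 119). Fech, which inserts iron into the ring, stood at 19.1 and 16 against 0.423 and 0.403. After thinning to 900 UMIs, Alas2 had a UMI in 26 of 52 and in 56.9% of members and in 1.05% and 5.39% of the remaining barcodes, and before thinning in 78.8%, 73.2%, 4.35% and 11.1%.

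Iron genes were higher as well, 3 of 3 in each library (median log2 ratios 1.41 and 1.62). Slc25a37, the mitochondrial iron importer of red cell precursors, was at 16.3 and 17.4 against 0.219 and 0.403. The ferritin chains Fth1 and Ftl1, which store iron in most cells, were higher by smaller factors: Fth1 by 2.24-fold (1.98 to 2.54) and 2.94-fold (2.68 to 3.22), Ftl1 by 2.65-fold (2.35 to 2.98) and 3.06-fold (2.70 to 3.46). Per all UMIs, globin included, both ferritin chains were lower in the members of both libraries.

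Enzymes that guard haemoglobin and handle gases were higher for 6 of 6 and 7 of 7 measured genes (3.84 and 3.94). Gpx1, a peroxide-reducing selenoenzyme, was at 94.1 and 82.3 against 8.61 and 5.88, and Prdx2, an abundant red cell peroxiredoxin, at 47.4 and 44.8 against 3.09 and 3.03. Car2, carbonic anhydrase 2, was at 54.1 and 40.9 against 0.345 and 0.976. Bpgm, which makes the 2,3-bisphosphoglycerate that lowers the oxygen affinity of haemoglobin, was at 45.3 and 27.6 against 0.593 and 0.480.

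Of the membrane and membrane skeleton list, 5 of 5 measured genes were higher in the Casp8-mutant members (median log2 ratio 6.02). Slc4a1, the band 3 anion exchanger, was at 6.01 and 11.4 against 0.0261 and 0.167. Transcription factor messages were thin. Hemgn, a nuclear factor of blood cell precursors, passed the minimum only in the Casp8-mutant library, at 13.5 against 0.186, and Klf1, the factor that drives adult β-globin transcription, had 6 UMIs in the members of each library.

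Genes of reticulocyte maturation and clearance were higher for 5 of 5 and 6 of 6 measured (4.69 and 3.94). Mkrn1, a ubiquitin ligase, was at 86.0 and 46.0 against 0.966 and 1.19. Bnip3l, the receptor by which reticulocytes clear mitochondria, was at 14.2 and 7.02 against 0.554 and 0.449. Mir451a (chromosome 11, 78073170 to 78073241), whose mature product is shown above, gave 18 UMIs in 12 members and 51 in 30, against 2 and 14 UMIs in all remaining barcodes. These are 3' tags at the locus, not the mature microRNA. Mir451a headed the genes ranked by the smaller of both libraries' lower bounds, and Rec114, Alas2, Fam126a, Hemgn, Tmcc2, Trim10, Tspo2, Slc4a1 and Bpgm were also near the top. Rec114, a meiotic recombination gene, overlaps Nptn on the opposite strand and Gm20620 on the same strand. Its reads cannot be told apart from Nptn where the strand used in counting is not given, nor from Gm20620 by strand. Mir451a, Alas2, Fam126a and Tmcc2 also overlap other annotated genes, Fam126a on the same strand.

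**Figure D3:**
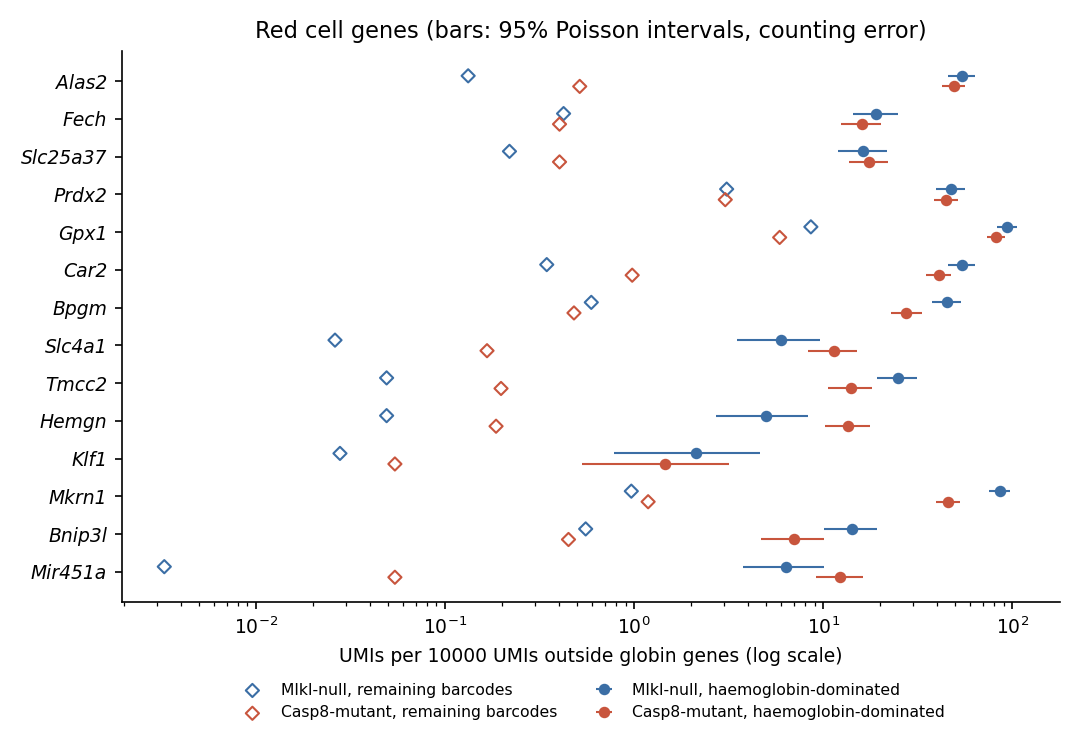
Levels of 14 red cell genes (UMIs per 10000 UMIs outside globin genes, log axis) in the members (filled points with exact Poisson intervals) and in the remaining barcodes (open diamonds) of each library. Every gene lies above its remaining-barcode level in both libraries, Alas2 at 54.1 and 49.1 against 0.132 and 0.515.

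Ribosomal protein messages were lower. Of the measured genes 23 of 29 were lower and 1 (Rpl41) higher in the Mlkl-null members (median log2 ratio -1.05). In the Casp8-mutant members 58 of 63 were lower and none higher (-1.69). Over all measured genes 32.8% and 42.7% were lower. Some ribosomal genes passed the minimum only by UMIs expected from the remaining barcodes, such as Rps18 with 1 UMI in the Mlkl-null members. Of the mitochondrially encoded genes 3 of 4 and 2 of 4 were lower (-0.94 and -0.53), the second count near the 42.7% of all measured genes, with a summed level of 47.1 and 27.6 against 87.4 and 43.8. The proliferation list had few UMIs, 89 and 186, but a summed level of 31.5 and 45.0 in members against 9.79 and 14.0 in the remaining barcodes. In the Mlkl-null members Pcna, Mcm5, Tyms and H2afz were at 0. The only measured gene of the list in the Mlkl-null library was Ube2c, a cell cycle ubiquitin-conjugating enzyme with 44 of the 89 UMIs. In the Casp8-mutant library all 3 measured genes, Ube2c, Ccnb2 and Hmgb2, were higher, beside 32.3% of all measured genes. Ube2c was at 15.6 and 14.3 against 1.04 and 1.52, 15-fold (10.8 to 20.4) and 9.38-fold (7.01 to 12.4) higher.

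Members also carried RNA of gut epithelium. The 15 epithelial markers summed to 317 and 191 UMIs per 10000 non-globin UMIs in the members, against 428 and 203 in the remaining barcodes, and had a UMI in 52 of 52 and 121 of 123 members. Krt20 and Reg3g were at 0 in the Mlkl-null members. Fabp1, the fatty acid binding protein of enterocytes, had a UMI in 52 of 52 Mlkl-null members, and after thinning in 84.6% of members and 90.5% of the remaining barcodes (100% and 99.6% before thinning). The thinned shares lay within counting error of each other. Levels of other markers are given with those of the remaining barcodes in brackets. Fibroblast markers summed to 1.77 and 3.87 (3.10 and 4.66), and smooth muscle markers to 5.31 and 0.726 (3.18 and 0.701). Platelet markers summed to 1.06 and 1.69 (1.157 and 1.503), and lymphoid markers to 0 and 0.726 (0.173 and 0.302). Endothelial markers summed to 0 and 0.242 (0.423 and 0.252), with 6 of 6 and 5 of 6 at 0 in members. The endothelial and lymphoid levels were low in the remaining barcodes too, so these zeros do not set the members apart. Pancreatic acinar markers summed to 25.5 and 2.66 (22.3 and 2.40), and myeloid markers to 10.3 and 21.5 (12.3 and 15.5).

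The members were not uniform, and Malat1, a long non-coding RNA retained in the nucleus, differed widely among them. Its pooled level in members, 793 and 852, was higher than the 293 and 365 of the remaining barcodes. It was lower than in the remaining barcodes among members over 80% haemoglobin, and in all members per all UMIs. Single members ran from 0 to 322 UMIs and from 1 to 106. After these values were seen, members were divided at the level of their own library's remaining barcodes. This gave 23 members above and 29 below in the Mlkl-null library, and 79 and 44 in the Casp8-mutant library. Such a division is a range and not a cell type: within 1.5-fold of the division lay 2 Mlkl-null members above and 1 below, and 15 Casp8-mutant members above and 23 below. In the Mlkl-null library the 29 below were exactly the 29 with more than 80% haemoglobin, and in the Casp8-mutant library 34 of 44 below and 9 of 79 above passed 80%.

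Members above the Malat1 division held more non-globin UMIs and more genes, and in the Mlkl-null library the division is the same as one at 80% haemoglobin. Median gene numbers were 509 above and 262 below in the Mlkl-null library, and 280 and 172 in the Casp8-mutant library, at medians of 775, 319, 416 and 195 non-globin UMIs. Proliferation genes summed to 43.1 above and 8.44 below in the first library (81 and 8 UMIs) and to 54.8 and 11.7 in the second (175 and 11 UMIs). In the Mlkl-null members Car2 gave 147 UMIs above and 6 below, and Tmcc2, a transmembrane and coiled-coil gene, 69 and 1. Gpx1 and Prdx2 were higher above than below in both libraries: Gpx1 was at 122 and 38.0 (Mlkl-null) and 91.2 and 52.1 (Casp8-mutant), and Prdx2 at 61.2 and 20.1, and 51.1 and 23.4. Alas2 and Mkrn1 had no common order, since Alas2 was at 60.1 above and 42.2 below in the Mlkl-null library but 46.1 and 59.5 in the other, and Mkrn1 at 97.4 and 63.3 but 41.0 and 62.7. Ftl1 was at 84.1 above and 134 below in the Mlkl-null library. The globin genes moved too, since Hbb-bt made up 22.6% of adult β UMIs above and 13.6% below, and 24.1% and 19.9% in the Casp8-mutant library. Hba-x stayed at 26.9 and 26.0, and 27.2 and 26.4, per 100 adult α UMIs. The median epithelial level per barcode was 245 above and 459 below, and 155 and 218, so droplets poorer in Malat1 were relatively richer in epithelial RNA, whose part in these differences was not tested.

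Over single barcodes the number of genes ran with the Hbb-bt share of adult β, with Pearson r = 0.877 (Spearman 0.881, n = 52) and 0.678 (0.698, n = 123). The haemoglobin share ran against it, with r = -0.761 and -0.657. These are correlations over cells of 1 library, which share depth, and they are given as descriptions only.

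**Figure D4:**
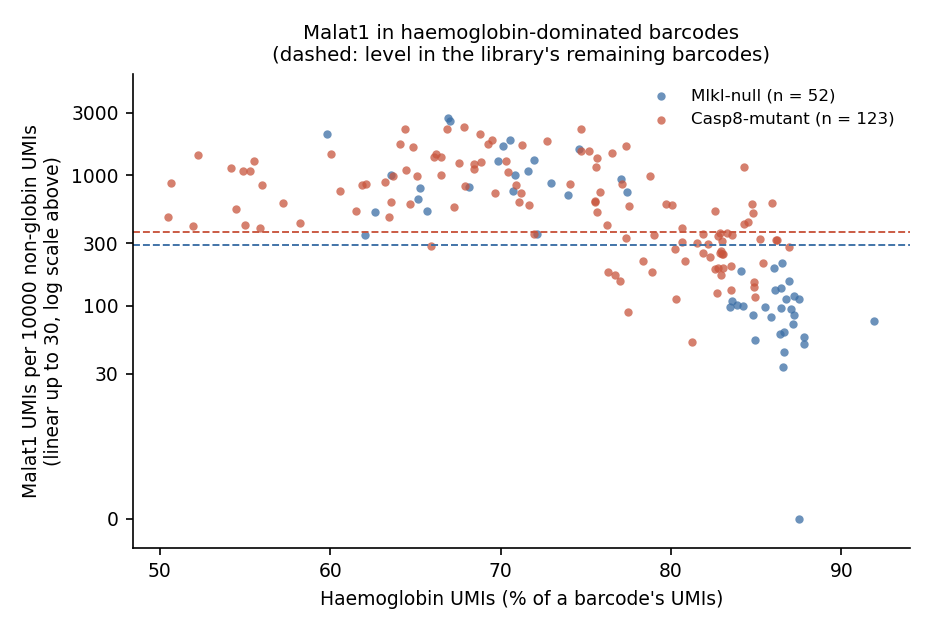
Malat1 level of each member (UMIs per 10000 non-globin UMIs) against its haemoglobin share (percent), with points coloured by library, a y axis that is linear near 0 and logarithmic above, and the level of the remaining barcodes of each library as a dashed line at 293 and 365. All 29 Mlkl-null members over 80% haemoglobin lie below their line and the other 23 above it, and in the Casp8-mutant library 79 lie above and 44 below.

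Red cell genes in the members were then compared between the libraries. Over all 554 genes with at least 20 UMIs in the members together, 91 (16.4%) were higher and 70 (12.6%) lower in the Casp8-mutant members, with a median log2 ratio of 0.01. In the remaining barcodes 3449 of 15318 genes (22.5%) were higher and 4101 (26.8%) lower. Scaled to all UMIs, globin included, the split in the members moved to 123 higher and 48 lower and the median log2 ratio to 0.22. The median haemoglobin share was 84.0% and 75.6%.

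None of the 7 measured haem synthesis genes was past the size in either direction (median log2 ratio -0.26). Alas2 was 1.10-fold lower (0.888 to 1.37) and Fech 1.20-fold lower (0.819 to 1.74), each with an interval that holds 1. The peroxiredoxin Prdx2 was 1.06-fold lower (0.842 to 1.33). The red cell enzyme list held 2 higher and 1 lower gene of 7 (-0.19), beside 16.4% higher and 12.6% lower over all 554 genes. Blvrb, biliverdin reductase B, was 2.33-fold higher (1.5 to 3.72), and Bpgm 1.64-fold lower (1.27 to 2.13). Of the membrane list 2 of 7 were higher, a count too small to set apart from that 16.4%. They were Slc4a1 by 1.89-fold (1.07 to 3.51) and Cd47, the surface signal that restrains phagocytosis, by 1.81-fold (1.02 to 3.37). Both intervals start close to 1. Hemgn was 2.74-fold higher (1.5 to 5.32), with 14 and 56 UMIs. The proliferation list held 2 higher genes of 5, Ccnb2 and Top2a, the latter with 2 and 19 UMIs (median log2 ratio 0.64). Among members over 80% haemoglobin the directions of Hemgn (1 and 0 UMIs) and Cd47 (3 and 2) turned, on counts too low to carry a direction.

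The maturation list had 3 lower genes of 8 (-0.60), beside 12.6% lower over all 554 genes. Mkrn1 was 1.87-fold lower (1.54 to 2.27), Bnip3l 2.02-fold lower (1.22 to 3.37), and Ube2o, which tags reticulocyte proteins for removal, was the third. Tmcc2 was 1.76-fold lower (1.23 to 2.54), with only 1 and 2 UMIs among members over 80% haemoglobin, where the direction turned, and Ftl1 1.56-fold lower (1.32 to 1.85). Among members above the Malat1 division Mkrn1 was 2.37-fold, Bpgm 2.0-fold and Bnip3l 2.64-fold lower. Below it the ratios of Mkrn1 (0.990, interval 0.679 to 1.44), Bpgm (0.982, 0.619 to 1.56) and Bnip3l (0.923, 0.369 to 2.28) had intervals that hold 1, and the difference between the 2 ranges was not tested. Of 38 genes at least 5-fold higher in members by the lower bound in both libraries, 3 were higher in the Casp8-mutant members (Blvrb, Rsad2 and Sec61g), 6 lower and 29 neither, with a median log2 ratio of -0.15, beside the 16.4% higher and 12.6% lower over all 554 genes.

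Interferon-stimulated genes, which cells switch on after interferon signalling, were higher in the Casp8-mutant members. Of 9 measured genes of the 33-gene list 7 were higher and none lower, beside 16.4% higher and 12.6% lower over all 554 genes. The median log2 ratio was 2.49 against 0.01 over all measured genes. Of the 33 genes 19 were at 0 in the Mlkl-null members. The minimum of 20 UMIs is summed over both libraries, so a gene could pass it through the Casp8-mutant members alone. Isg15, an interferon-induced ubiquitin-like protein, gave 27 UMIs in 7 of 52 Mlkl-null members and 225 in 87 of 123 Casp8-mutant members, levels of 9.55 and 54.4 and a ratio of 5.70 (3.81 to 8.84). Rsad2, the antiviral enzyme viperin, was at 9.55 and 21, a ratio of 2.20 (1.42 to 3.53). Ifitm3, which blocks virus entry at membranes, was at 2.12 and 20.1, a ratio of 9.46 (4.17 to 26.5). MHC class I genes showed the same direction for 3 of 3 measured, B2m, H2-K1 and H2-D1 (median 1.61), a small count beside the same 16.4%. B2m, the light chain of MHC class I, was at 4.25 and 21, a ratio of 4.96 (2.70 to 9.96).

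In the remaining barcodes the same contrast gave 52.5 for Isg15 (45.3 to 61.1), 19.9 for Rsad2, 12.9 for Ifitm3 and 4.79 for B2m. The Isg15 ratio was smaller in members than elsewhere, with intervals that did not overlap. In the Mlkl-null library its level was 9.55 in members and 0.306 in the remaining barcodes, although 2 members held 18 of the 27 UMIs and the level without them was 3.18. Without these 2 barcodes the ratio between the members of the libraries was 15.8 (8.19 to 35.0). In the Casp8-mutant library its level was 54.4 in members and 16 elsewhere, an order that turned per all UMIs. After thinning to 900 UMIs Isg15 had a UMI in 9.62% of Mlkl-null members against 3.30% of the remaining barcodes, and in 55.3% of Casp8-mutant members against 62.4%. Before thinning the shares were 13.5%, 7.57%, 70.7% and 82.4%. The thinned Isg15 shares of the Casp8-mutant library have overlapping intervals. The 900 UMIs include globin UMIs, so thinned members kept fewer non-globin UMIs than thinned remaining barcodes. Thinned shares therefore do not compare levels per non-globin UMI. Ifitm3 and B2m had lower thinned shares in Casp8-mutant members, at 30.1% (22.1 to 39.0) and 34.1% (25.8 to 43.2). The remaining barcodes of that library had 54.5% and 73.5%. Rsad2 was at 28.5% against 22.2%, with overlapping intervals. Empty droplets were not measured, so these shares do not give the level of background RNA.

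Ube2l6, the E2 enzyme that passes Isg15 to its targets, was not past the size between the members of the libraries. Its level was 12 in Mlkl-null and 11.4 in Casp8-mutant members, a ratio of 0.945 (0.595 to 1.52), against 0.0948 and 0.461 in the remaining barcodes, where the ratio was 4.86 (3.52 to 6.78). It had a UMI in 25 of 52 and 35 of 123 members, and after thinning in 13 of 52 and in 21.1% of members against 0.842% and 4.71% of the remaining barcodes (before thinning 48.1%, 28.5%, 4.0% and 11.3%). The share of members with a Ube2l6 UMI was thus above that of the remaining barcodes in both libraries. Above the Malat1 division Isg15 was 3.94-fold higher in the Casp8-mutant members (2.60 to 6.2), and 11.4-fold higher (5.64 to 26.7) without the same 2 Mlkl-null barcodes, which leave 8 UMIs. Below it there were 51 UMIs against 1, a ratio of 51.3 (8.81 to 2066) that rests on that 1 UMI.

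**Figure D5:**
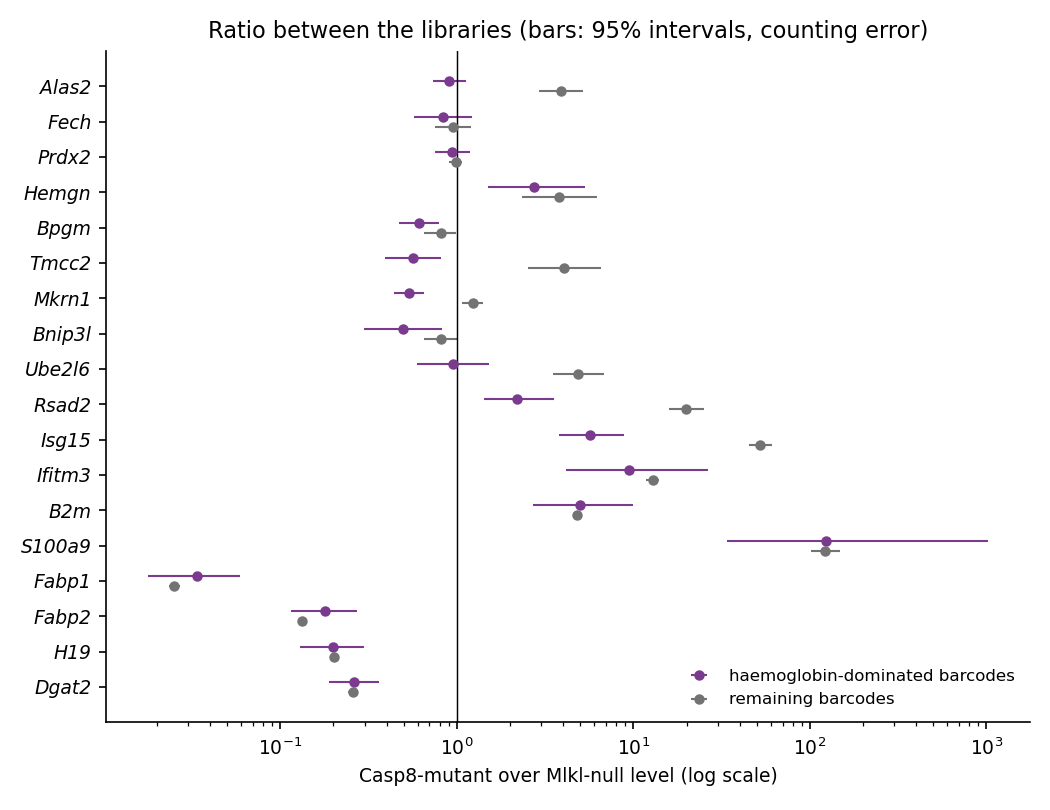
Casp8-mutant over Mlkl-null ratio (log axis, with exact conditional intervals) of 18 genes in the members (purple) and in the remaining barcodes (grey). Alas2 and Prdx2 in members lie near 1, Mkrn1 and Bpgm below it, and Isg15 lies at 5.70 in members and 52.5 in the remaining barcodes.

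Several genes that differed most between the libraries in the members are known from other cells, and they differed in the same direction outside the members. S100a8 and S100a9, the calprotectin chains of neutrophils, gave 1 and 2 UMIs in the Mlkl-null members and 347 and 359 in the Casp8-mutant members. Their ratios were 237 (42.3 to 9399) and 123 (33.7 to 1017), against 93.8 and 122 in the remaining barcodes. Cxcl2, a neutrophil-attracting chemokine, had 0 and 89 UMIs, at least 20.3-fold higher with 3 counts taken for the zero, where the exact conditional interval starts at 16.2, and 18.7-fold higher elsewhere. The interval thus holds the ratio found elsewhere. The antimicrobial lectin Reg3b gave 1 and 123 UMIs, a ratio of 84.1 (14.8 to 3349) against 118 elsewhere. Reg3g had 0 and 48 UMIs, at least 10.9-fold higher by the same 3 counts, with an interval from 8.56. The stefin genes BC100530 and Stfa1 had 0 in the Mlkl-null members and 47 and 41 UMIs in the Casp8-mutant members, at least 10.7-fold and 9.35-fold higher by the same 3 counts, with intervals from 8.38 and 7.26.

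Granulocyte markers together gave 3 UMIs in the Mlkl-null members and 805 in 121 of 123 Casp8-mutant members, with a median of 4 per barcode. Their level was 195 in the Casp8-mutant members, 146 without the 3 barcodes that held 123, 67 and 30 of these UMIs, and 54.1 in the remaining barcodes. The myeloid markers Tyrobp and Fcer1g were also higher in the Casp8-mutant members, Tyrobp by 4.96-fold (1.74 to 19.4). After thinning S100a8 had a UMI in 78.0% of Casp8-mutant members and 76.0% of the remaining barcodes of that library (94.3% and 94.8% before thinning). The thinned shares lay within counting error of each other, while the level per 10000 non-globin UMIs was 3.81-fold higher in members (3.40 to 4.24) and the level per all UMIs was lower in them. The part of such RNA in the interferon and MHC class I differences was not tested.

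Genes lower in the Casp8-mutant members included messages of enterocytes and pancreas. Fabp1 gave 262 UMIs in 52 of 52 Mlkl-null members and 13 in 13 of 123 Casp8-mutant members, 29.5-fold lower (16.9 to 56.1), and 39.8-fold lower in the remaining barcodes. Fabp2, a second enterocyte fatty acid binding protein, was 5.60-fold lower (3.69 to 8.74) and 7.52-fold lower elsewhere. The retinol carrier Rbp2 was 6.71-fold lower (4.2 to 11.2) against 10.4-fold elsewhere, and the pancreatic protease Ctrb1 9.10-fold (4.47 to 20.9) against 7.25-fold. The imprinted genes Cdkn1c and H19 were 9.87-fold (3.44 to 38.8) and 5.03-fold (3.36 to 7.70) lower, against 6.32-fold and 4.97-fold. Scd2, a fatty acid desaturase, was 8.41-fold lower (2.87 to 33.4) against 5.78-fold.

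Dgat2, which makes triglyceride, stood apart in its level. It was 3.81-fold lower in the Casp8-mutant members (2.76 to 5.33) and 3.87-fold lower elsewhere, but its members stood above the remaining barcodes in both libraries, at 48.8 against 13.9 and 12.8 against 3.59. That is 3.52-fold (2.95 to 4.17) and 3.57-fold (2.66 to 4.72) higher, while per all UMIs it was lower in the members of both.

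Sex-linked genes separated the embryos. Xist, which silences an X chromosome in female cells, gave 0 UMIs in the Mlkl-null members and 164 in 78 of 123 Casp8-mutant members, at least 37.4-fold higher with 3 counts taken for the zero and an interval from 30.1. The Y-linked genes Ddx3y, Eif2s3y and Uty gave 2, 1 and 1 UMIs in the Mlkl-null members and 0 in the Casp8-mutant members, so sex cannot be told apart from genotype. After thinning Xist had a UMI in 43.1% of Casp8-mutant members and in 802 of 891 remaining barcodes. The share in members was thus below that of the remaining barcodes (63.4% and 97.1% before thinning). Its level per 10000 non-globin UMIs was 39.7 in members and 32.2 elsewhere.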

How the data were processed

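The deposited files are 2 matrices of UMI counts per gene and barcode, made by the authors and checked to hold whole numbers. Per the labels' protocols, about 10000 cells of each papain-dissociated suspension (0.5 mL, 30 min) were loaded on a 3' v2 droplet chip. The labels give the source as small intestine and, in the protocol, as whole intestine. Cell Ranger 3.0.2, Seurat 3.0 and the mm10 build are listed, per the submitters' processing notes. The sources used here give neither the use of each tool, nor how barcodes were selected, nor the strand used in counting. Of 52636 gene IDs, 52403 had a symbol in GENCODE M21, and 1 of 260 listed genes (Ahsp) was not matched. No doublets were called and no cells were filtered out. The members, gene lists and settings were chosen with earlier results of these data known.

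UMIs were summed over members and over the remaining barcodes of each library, and expressed per 10000 UMIs outside 13 globin genes. Shares carry Clopper-Pearson intervals, levels exact Poisson intervals and ratios exact conditional intervals, checked on simulated data. Named genes are the 7 haemoglobin genes, the members of each list with most UMIs (2 to 4), the 12 genes highest in members by interval bound, the 8 highest and 8 lowest between libraries, and sex-linked genes. Some genes that this rule names are not reported here. Tmcc2, Car2 and Malat1 comparisons above and below the division, Blvrb, Sec61g, Dgat2 levels, the pseudogenes and the concentration of Isg15 were chosen after their values were seen. Python 3.11.15, numpy 2.4.6, scipy 1.17.1, pandas 2.3.3 and matplotlib 3.10.9 were used. Alternatives were other haemoglobin thresholds, gene-number limits, thinning to 900 UMIs with globin included, minimum counts, scalings and sets of barcodes. Promoter windows and miR-451a are RefSeq sequences on GRCm38.p6.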

Additional observations from a re-analysis of the deposited data

How the results depend on the processing

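No paired analysis was possible because each genotype had 1 library. Shares of members moved at more than 80% haemoglobin, to 1.96% and 4.24% (ratio 2.16), and with at least 500 genes to 0.973% and 0.229%, where the ratio turned to 0.235. The α-type share of the Mlkl-null members was 33.1% at more than 80% and 34.1% with fewer than 500 genes. The Hbb-bt share of adult β was 13.6% (Mlkl-null) and 19.1% (Casp8-mutant) at more than 80%, 14.6% in Mlkl-null members with fewer than 500 genes, 14.8% and 23% as medians over barcodes, and 16.4% in thinned Mlkl-null members. At more than 80%, genes higher and lower in members numbered 23 and 12 of 58 (Mlkl-null) and 27 and 14 of 53 (Casp8-mutant), and between libraries 24 and 18 of 121, since fewer genes reach the minimum. With fewer than 500 genes the Mlkl-null counts were 44 and 29. With no minimum they were 628 and 285 (Mlkl-null), 875 and 502 (Casp8-mutant) and 139 and 183 (between libraries). Per all UMIs they were 43 and 196, and 67 and 366.

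At more than 80% haemoglobin the log2 ratio of members to remaining barcodes turned for Malat1, to -1.49 (Mlkl-null) and -0.20 (Casp8-mutant), and in the Casp8-mutant library for Reg3g (0.12) and Cdkn1c (0.025). Between libraries it turned for Cd47 (-0.30), Hemgn (-1.40) and Tmcc2 (0.93). Per all UMIs, which adds the globin UMIs to the denominator, it turned in the Mlkl-null members for Fth1 (-1.18), Ftl1 (-0.94), Malat1 (-0.91) and Dgat2 (-0.53). In the Casp8-mutant members it turned for Fth1 (-0.56), Ftl1 (-0.50), Cd47 (-0.088), Malat1 (-0.90), Isg15 (-0.36), S100a8 (-0.19), S100a9 (-0.22), Cxcl2 (-0.37), BC100530 (-0.47), Stfa1 (-0.51), Tyrobp (-1.14) and Dgat2 (-0.27). Of the other values for single genes and the Hba-x share under alternatives, 526 stayed within the counting interval of the reported value and 157 left it without a turn of direction. The common depth minimum, the sets without 3 granulocyte-rich members and Isg15 without 2 Mlkl-null members were chosen after seeing the data. Depth limits rare genes: members held medians of 453.5 and 305 UMIs outside globin genes.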
